A study of Mus musculus with 34 samples.

Results

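Rbm39, Dcaf15 and Dda1 were followed through polyA+ RNA-seq of N2A (Neuro-2A) cells, a mouse neuroblastoma line, exposed for 24 h to 27 small molecules or to the vehicle DMSO. The genes were taken by name from a list of 4, of which 3 are analysed here, among 52661 genes with an expression value. All 77 splicing events filed under them were taken as well, among 364439 events of all genes. The list was chosen by gene name with the RPKM and splicing values of these libraries known, so the values below are a description, and no test was made on these genes.

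RBM39 is an RNA-binding protein with RS-rich and RNA recognition domains that works in pre-mRNA splicing, next to the 3′ splice site factor U2AF, and as a coactivator of transcription factors such as AP-1 and the oestrogen receptors. DCAF15 is the substrate receptor of a CRL4 ubiquitin ligase, built on the cullin CUL4, DDB1 and the RING protein RBX1, and DDA1 is a small subunit that steadies the contact between DCAF15 and DDB1. Aryl sulfonamides such as indisulam glue RBM39 to DCAF15, after which RBM39 is ubiquitinated and degraded. Splicing factor genes often hold poison exons, short alternative exons with a stop codon in frame, whose inclusion sends the transcript to nonsense-mediated decay (NMD) and so lowers the yield of full-length mRNA.

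The cells carried no genetic change that the labels name, and every group contained 0.4% DMSO. DMSO alone had 3 libraries (A, B and C). The 4 histone deacetylase (HDAC) inhibitors had 2 libraries each, namely Vorinostat (2.5 µM in the study's dose list, which gives another dose elsewhere), CI-994 (5 µM), BRD6688 and BRD4884 (both 10 µM). The other 23 compounds had 1 library each. Among them, 4 are called the benzenesulfonamides here, because their chemical names in the study's compound list hold that word, namely BTB12021 (20 µM), S02045 (5 µM), RDR00572 and RH01954 (both 2.5 µM). S02045, RDR00572 and RH01954 carry a sulfonyl hydrazone, whereas BTB12021 is an isoquinoline sulfonamide without it. The kinase inhibitors were A-443654 (AKT, 0.25 µM), NVP-AEW-541 (IGF1R, 1 µM), Trametinib (MEK, 1 µM), Crenolanib (PDGFR and FLT3, 2 µM), SCH-772984 (ERK, 2 µM), GNF-5837 (TRK, 0.5 µM) and MK-1775 (WEE1, 2 µM). The remaining compounds were 5-azacytidine, AW00693 and JFD00822 (each 5 µM), SPB00858 (20 µM), SEW06315 and BTBS00065 (both 2.5 µM), BTB13120 (no dose found), and T5635931, T5758020, T5963258, T5985871 and a ChemBridge compound labelled OICR.24K.Dissimilar_18_P14 (each 6.7 µM).

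Between 33489970 and 75978445 reads per library fell on exon events. In DMSO, 5 of 7 neuronal markers were above 5 RPKM (reads scaled to transcript length and library size). The neurofilament genes Nefl and Nefm were near 0 in DMSO (0.01 RPKM each), and 0 of 5 fibroblast, 0 of 5 glial and 0 of 4 myeloid markers passed 5 RPKM there. With CI-994 the summed fibroblast markers reached 23.42 RPKM, against 0.58 in DMSO. The part of such shifts in the values below was not tested, and in bulk RNA fewer cells of a type and less RNA per cell cannot be told apart.

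The gene Rbm39 holds 4 short cassette exons in its first part that GENCODE vM21 places in transcripts annotated as NMD targets or as retaining an intron, and in 0 protein-coding ones. They were chosen for description after their values were seen, as was the 62-nt exon of Dda1 described further on. The 73-nt exon lies on the minus strand at chr2:156004616-156004688 (mm9, as all positions here), 224 nt past the exon before it. It occurs in 5 annotated transcripts, 4 of them NMD targets, and its stop codon occupies bases 70 to 72. The 155-nt exon (chr2:156003488-156003642) has its stop at bases 136 to 138, the 55-nt exon (chr2:156002139-156002193) at bases 17 to 19 and the 72-nt exon (chr2:155999833-155999904) at bases 41 to 43. Support for these stops differed. The annotated stop lies inside the exon in 4 of 5 matched transcripts for the 73-nt exon and 1 of 1 for the 155-nt exon. For the 55-nt exon it does so in 1 of 2, and for the 72-nt exon in 1 of 3. The sequences below run from the first base of each exon through the stop codon, in capitals, and are shown because the inclusion of these stops differed between the conditions. They were read from the GENCODE vM21 transcripts.
Rbm39 73-nt exon: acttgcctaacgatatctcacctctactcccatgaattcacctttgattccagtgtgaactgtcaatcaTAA
Rbm39 155-nt exon: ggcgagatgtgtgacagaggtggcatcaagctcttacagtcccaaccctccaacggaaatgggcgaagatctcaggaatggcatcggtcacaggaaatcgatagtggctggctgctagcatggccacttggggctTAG
Rbm39 55-nt exon: agctcaaagtgcttcaTAA
Rbm39 72-nt exon: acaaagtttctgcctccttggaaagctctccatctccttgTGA

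Inclusion of the 73-nt exon of Rbm39 was almost lost with the 4 benzenesulfonamides. Inclusion is given as percent spliced in (PSI), estimated from the junction reads around the exon that include or skip it. Each value has a 95% Wilson interval that covers counting error only. The reads come from the polyA+ RNA present at 24 h. Splicing of the exon and decay of the transcripts that carry it therefore cannot be told apart. In the DMSO libraries A, B and C the exon was at 6.02 PSI (3864 reads), 6.63 PSI (2330 reads) and 6.38 PSI (1350 reads), a mean of 6.34 ± 0.31 (SD, n = 3). It was at 0.38 PSI with S02045 (95% interval 0.228 to 0.633, 3778 reads), at 0.58 with RDR00572 (0.394 to 0.853, 4356 reads), at 0.62 with BTB12021 (0.409 to 0.94, 3497 reads) and at 0.73 with RH01954 (0.447 to 1.189, 2141 reads). These 4 libraries sat below every other library, and their intervals overlapped one another but no DMSO library. Summed over these 4 different compounds, which are not replicates of one another, the exon was included in 77 of 13772 reads. The sum over the DMSO libraries was 473 of 7544. The levels were 16.7, 10.9, 10.2 and 8.69 times below the DMSO mean for S02045, RDR00572, BTB12021 and RH01954.

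The exon at its DMSO level could not lose 10 PSI, so the difference of at least 10 PSI used here to call an event could not be reached downward. It was therefore also set on the scale of odds of inclusion, beside all exons at 2 to 20 PSI in DMSO with at least 200 reads in each library used, called minor exons below. A minor exon was called at a difference of at least 1 on the log2 scale and above 1.645 times its counting error, a scale and limits chosen after the data were seen. The log2 odds of the 73-nt exon differed from DMSO by -4.10 with S02045 (counting SE 0.38), -3.51 with RDR00572 (0.29), -3.41 with BTB12021 (0.32) and -3.16 with RH01954 (0.37). Of the minor exons, counted with this one, 0 of 496, 0 of 474, 1 of 472 and 0 of 499 lay lower in the same libraries. The share of minor exons called decreased was 13.9% with S02045, 15.4% with RDR00572, 16.1% with BTB12021 and 7.01% with RH01954. The shifts of this exon therefore stood at the low end of libraries in which minor exons had a median of -0.21, -0.22, -0.19 and -0.10. Each of these compounds had 1 library and so no replicate check, and all comparisons share the 3 DMSO libraries.

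**Figure D1:**
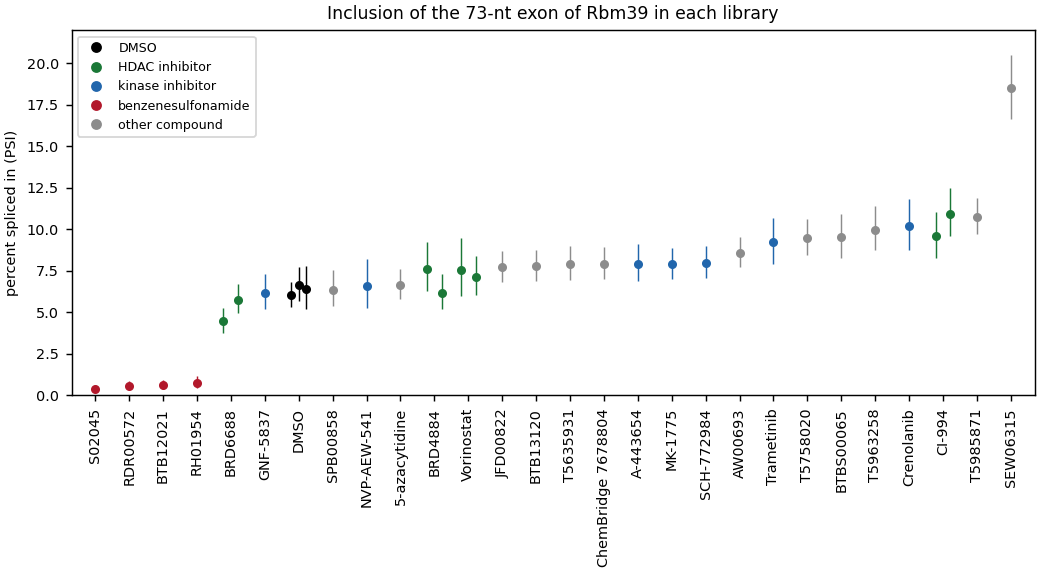
Percent spliced in of the 73-nt exon of Rbm39 (y axis, PSI) in each of 34 libraries, with conditions on the x axis ordered by their mean and bars for the 95% Wilson interval. The 4 benzenesulfonamides lie between 0.38 and 0.73, the DMSO libraries between 6.02 and 6.63, and SEW06315 alone at 18.52.

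**Figure D2:**
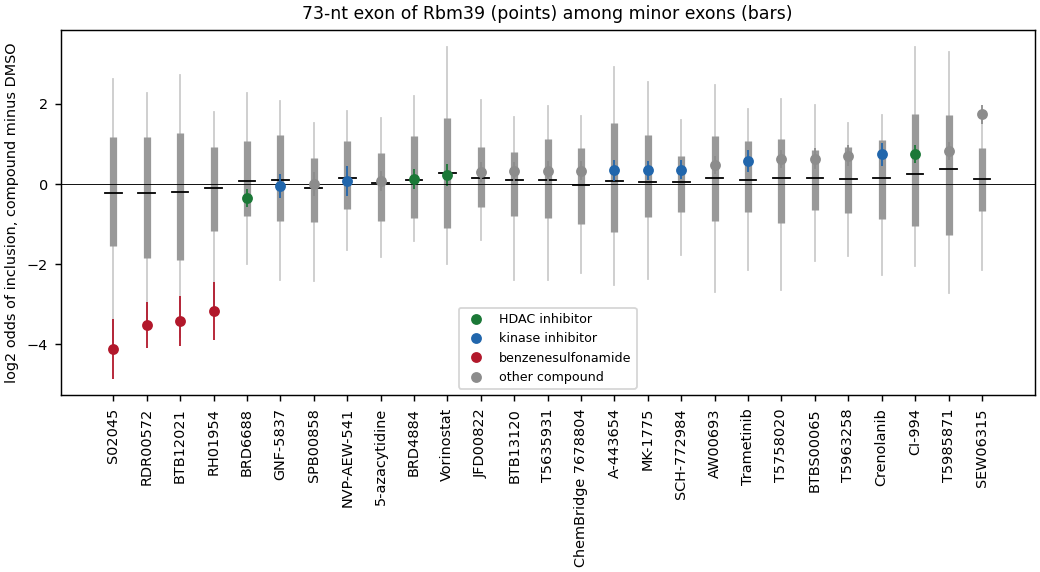
Difference in log2 odds of inclusion from DMSO (y axis) for the 73-nt exon of Rbm39 (points, with 95% counting intervals) in each compound (x axis). Black ticks give the median of the minor exons, thick bars their 5th to 95th percentile and thin lines their full range, and the points for the 4 benzenesulfonamides lie at or next to the low end of those lines, and that for SEW06315 at the top of its line.

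SEW06315, which is not one of the benzenesulfonamides, stood at the opposite end. The 73-nt exon was at 18.52 PSI (95% interval 16.668 to 20.528, 1555 reads), 2.92 times the DMSO mean, in its 1 library. The next highest conditions were T5985871 at 10.76 PSI and CI-994, whose libraries gave 9.59 and 10.94 PSI. The gain of 12.18 PSI was called, where 0.572% of all events were called increased with SEW06315. On the log2 odds scale it was 1.74 (counting SE 0.12), and 489 of 490 minor exons, counted with this one, lay lower and 0 higher, while 3.27% of them were called increased.

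The other 23 compounds ranged from 5.11 to 18.52 PSI, with a median of 7.91. In 18 of them every library was above the DMSO libraries, in 4 the libraries overlapped DMSO, and in BRD6688 both lay below it, at 4.45 and 5.77 PSI. Most of these offsets were small: neighbours in the order of levels from BRD6688 (5.11 PSI) to T5985871 overlapped in their counting intervals at every step. The only gaps in that order were the one between RH01954 and BRD6688 and the one between T5985871 and SEW06315. Trametinib (9.22 PSI), Crenolanib (10.19), BTBS00065 (9.54), T5758020 (9.5) and T5963258 (9.99) lay in its upper part, and GNF-5837 (6.17), SPB00858 (6.37), NVP-AEW-541 (6.61) and 5-azacytidine (6.66) close to DMSO.

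Cassette exons (over 27 nt) called decreased numbered 970 with BTB12021 (1.73% of those tested), 1125 with RDR00572 (2.01%) and 980 with S02045 (1.72%). With RH01954 they numbered 551 (0.971%). They numbered 1486 with MK-1775 (2.59%) and 1367 with T5985871 (2.52%), and there the 73-nt exon of Rbm39 was at 7.92 and 10.76 PSI. Each DMSO library set against the others gave 271 to 326 (0.456% to 0.585%). A relation between these counts and the 73-nt exon was not tested.

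The 72-nt exon of Rbm39 was likewise lowest with the 4 benzenesulfonamides among the libraries that passed the filters, from a lower start. The DMSO libraries gave 2.33, 2.32 and 2.17 PSI on 1557 to 4628 reads. BTB12021 gave 0.32 PSI (95% interval 0.183 to 0.56), RDR00572 0.43 (0.279 to 0.663), S02045 0.65 (0.457 to 0.924) and RH01954 1.07 (0.74 to 1.545), all under the DMSO libraries. The interval of RH01954 overlapped that of BRD6688, whose libraries gave 1.1 and 1.38 PSI. SEW06315 was again above DMSO, at 4.68 PSI (3.807 to 5.741). T5985871 read 7.17 PSI, but the reads on either side of the exon were unbalanced there, and that value did not pass the filters. A library of the other 23 compounds that did not pass either read 1.03 PSI, just below RH01954. The log2 odds differed from DMSO by -2.81 (BTB12021), -2.41 (RDR00572), -1.82 (S02045), -1.09 (RH01954) and 1.07 (SEW06315). Of the minor exons, counted with this one, 7 of 472, 7 of 474, 15 of 496, 32 of 499 and 13 of 490 lay beyond it. In the same order 16.1%, 15.4%, 13.9% and 7.01% of them were called decreased, and 3.27% increased with SEW06315. With RH01954 a shift of that size was therefore not rare among minor exons.

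The 2 rarer stop-carrying exons pointed the same way at the limit of the read depth. The 155-nt exon was at 0.56, 0.73 and 1.15 PSI in DMSO, of which the first passed the filters, and at 0.06, 0.12, 0.05 and 0.21 with BTB12021, RDR00572, S02045 and RH01954. Those 4 libraries together held 14 inclusion reads of 13734, and the one at 0.05 PSI did not pass the filters. All other compound libraries lay between 0.43 and 2.4 PSI, and 14 of these 27 passed. The 55-nt exon was at 0.56 to 0.98 PSI in DMSO and at 0.05 to 0.37 with the benzenesulfonamides, where the library at 0.05 did not pass. The other compound libraries, of which 24 of 27 passed, ran from 0.2 to 1.4 and so overlapped both. The 1791-nt intron (chr2:156003122-156004912) that surrounds the 73-nt and 155-nt exons was retained at 0.85, 2.1 and 1.57 PSI in DMSO. It was at 0.1, 0.1, 0.02 and 0.29 PSI with BTB12021, RDR00572, S02045 and RH01954 and at 4.55 with SEW06315, the lowest and the highest values of any compound. Intron retention and the exons within that intron are counted in part on the same junctions and are not independent measures.

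The matched pair RDR00572 and RH01954, both sulfonyl hydrazones at 2.5 µM, can be compared directly, with 1 library each and so without a test. Their intervals overlapped for the 73-nt exon (0.58 and 0.73 PSI), and did not overlap for the 72-nt exon (0.43 and 1.07 PSI). Rbm39 itself was at 210.08 RPKM with RDR00572 and at 154.68 with RH01954. S02045 and BTB12021 were used at other doses, and their values are given only side by side.

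Of the 39 events of Rbm39, 19 are exons, 5 alternative splice sites and 15 introns, and 23 passed the filters in every library. The remaining exons that passed in all libraries stayed at 97.92 PSI or above in every condition. A 4110-nt intron (chr2:155980026-155984135) passed in 0 DMSO libraries and so entered no comparison, and over the 13 compounds in which it passed it ran from 0.0 PSI with Crenolanib to 23.15 with CI-994, a value from its library B, while A stood at 0.0 PSI and did not pass. Of 896 pairs of an Rbm39 event and a compound, 5 (0.558%) were called at 10 PSI, where 1.19% of all pairs of any event and compound were called. Of those 5, 1 was the 73-nt exon with SEW06315 and 4 concerned 1 alternative 3′ splice site.

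That site adds 18 bases in frame to the start of a 33-nt coding exon (chr2:155979975-155980025 with the extension). The longer exon is in 4 annotated transcripts and the shorter in 3, of which 2 are protein coding in each case. The extension is shown in capitals.
Rbm39 51-nt exon: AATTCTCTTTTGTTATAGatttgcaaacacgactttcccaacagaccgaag
The extension was used at 37.75, 45.75 and 38.21 PSI in the DMSO libraries, on 206, 143 and 121 reads, a mean of 40.6 ± 4.5 (SD, n = 3). It was called lower with AW00693 (27.46 PSI, 151 reads), SPB00858 (28.3, 94 reads) and JFD00822 (29.68, 138 reads), where 0.715%, 0.439% and 0.655% of all events were called decreased. It was called higher with Crenolanib (53.42 PSI, 80 reads), where 0.515% were called increased. These 4 libraries lay outside the DMSO range, but neighbouring conditions overlapped in their intervals at every step of the order. The calls moved with DMSO library B, the highest of the 3. Without it the DMSO mean was 37.98 PSI, AW00693 (-10.52 PSI) and Crenolanib (15.44) were still called, SPB00858 (-9.68) and JFD00822 (-8.30) were not, and Trametinib (11.06), BTBS00065 (12.29) and GNF-5837 (10.63) were called higher. BRD6688, whose libraries A and B gave 39.24 and 29.82 PSI, was called lower (-10.75 PSI) without its library A. BTB12021 (38.84 PSI), RH01954 (43.01), S02045 (44.89) and SEW06315 (39.59) lay within the range of the DMSO libraries, RDR00572 (33.62) lay below it, and none of the 5 was called.

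The level of Rbm39 mRNA stayed within 2-fold of DMSO throughout. One RPKM value was deposited per condition, with replicates merged, so expression has no replicate check. Folds were taken on log2 of RPKM plus 0.5, and a call past 2-fold also needed over 5 RPKM in DMSO or in the compound. Rbm39 (ENSMUSG00000027620.16) was at 149.17 RPKM in DMSO and between 91.96 RPKM with Vorinostat and 273.12 with T5985871. It was past 2-fold in 0 of 27 compounds and within 1.5-fold in 22, where 6.53% of all pairs of gene and compound were past 2-fold. It was above DMSO in 17 compounds and below in 10.

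With the benzenesulfonamides Rbm39 was at 201.99 RPKM (BTB12021), 210.08 (RDR00572), 195.24 (S02045) and 154.68 (RH01954), all above the DMSO value, by 1.35, 1.41, 1.31 and 1.04 times. Those ratios were higher than those of 95.5%, 97.1%, 96.4% and 73.1% of genes in the same comparisons. AW00693 (233.1 RPKM) and T5985871 (273.12 RPKM) were higher still. At the low end stood Vorinostat (91.96 RPKM), BRD4884 (93.78), NVP-AEW-541 (99.17) and CI-994 (102.03). The median gene also shifted with some compounds, by -0.36 with Vorinostat, -0.44 with CI-994 and -0.20 with T5985871 on the log2 scale. Relative to that median Rbm39 was at -0.33, -0.11 and 1.08, and T5985871 then passed 2-fold.

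Over the 28 conditions the level of Rbm39 and the PSI of its 73-nt exon had a Pearson's r of -0.09 and a Spearman's rho of -0.02. Without the 4 benzenesulfonamides r was 0.24 and rho 0.30 over 24 conditions. Both quantities come from the same libraries, and merged RPKM values stand beside means of PSI, so these are descriptions of the set.

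**Figure D3:**
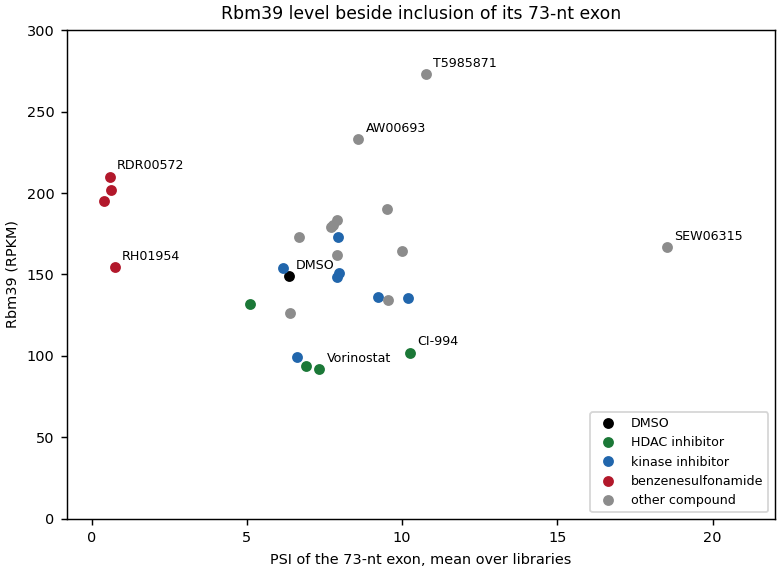
Rbm39 expression (y axis, RPKM) against the mean PSI of its 73-nt exon (x axis) in 28 conditions, each point 1 condition. The benzenesulfonamides form a column at the left with 154.68 to 210.08 RPKM, SEW06315 stands alone at the right with 166.98 RPKM, and T5985871 is highest with 273.12 RPKM.

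Dcaf15, the receptor that presents RBM39 to the ligase, was lower with most compounds and lowest with Vorinostat and CI-994, which are HDAC inhibitors. Dcaf15 (ENSMUSG00000037103.8) was at 30.57 RPKM in DMSO, below that in 22 compounds and above it in 5. The median gene was also below DMSO with every compound except T5758020, so that count does not set Dcaf15 apart. Dcaf15 was at 8.17 RPKM with Vorinostat and 9.16 with CI-994, 3.58 and 3.22 times below DMSO on the scale with 0.5 added. These 2 were past 2-fold. Of all genes, 22.5% were past 2-fold lower with Vorinostat and 26.1% with CI-994, so many genes shared that direction. Centred on the median gene, the log2 ratios of Dcaf15 were -1.48 and -1.25.

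The other values of Dcaf15 fell short of 2-fold. GNF-5837 (16.01 RPKM), MK-1775 (16.33) and the ChemBridge compound (16.93) came next, under the other pair of HDAC inhibitors, BRD4884 (18.09) and BRD6688 (18.88), and T5985871 (19.86). With the benzenesulfonamides Dcaf15 was at 31.26 (BTB12021), 25.57 (RDR00572), 31.73 (S02045) and 29.66 RPKM (RH01954), at 0.839 to 1.04 times DMSO. The highest value was 34.09 RPKM with BTBS00065.

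**Figure D4:**
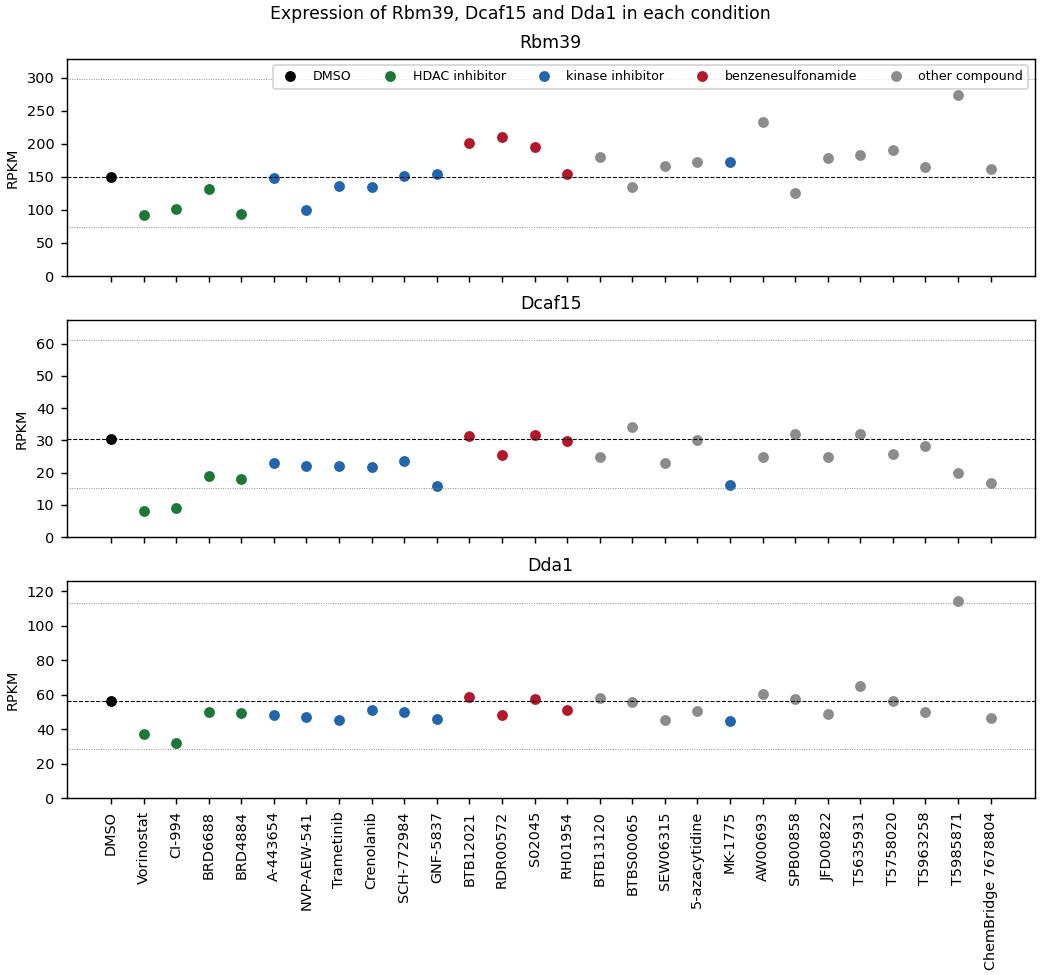
Expression of Rbm39, Dcaf15 and Dda1 (y axes, RPKM) in DMSO and 27 compounds (x axis), 1 merged value per condition, with a dashed line at the DMSO value and dotted lines at 2-fold above and below it. Dcaf15 is under the lower dotted line with Vorinostat (8.17) and CI-994 (9.16), and Dda1 touches the upper one with T5985871 (114.29).

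Dcaf15 has 29 splicing events, of which 11 are exons, 6 alternative sites and 12 introns, and 18 passed in every library. Among the Dcaf15 events that passed in DMSO and at least 20 compounds, a 5′ splice site had the widest PSI range. It adds 114 bases in frame to a 116-nt coding exon. The deposited position, chr8:86621522-86621745 (minus strand), is shorter than the annotated longer exon of 230 nt. Dcaf15-201 carries the longer exon and Dcaf15-202 the shorter, and both are protein coding. The extension is shown because it changes the coding sequence of the receptor.
Dcaf15 114-nt extension: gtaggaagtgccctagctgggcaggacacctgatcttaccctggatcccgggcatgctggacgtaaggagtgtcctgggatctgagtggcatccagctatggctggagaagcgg
It was used at 11.39, 17.16 and 16.18 PSI in DMSO, on 316, 268 and 136 reads, a mean of 14.9 ± 3.1 (SD, n = 3). Conditions ran from 5.76 PSI with NVP-AEW-541 (139 reads) to 24.05 with Vorinostat, whose libraries gave 21.43 and 26.67 PSI. It was called in 0 of 27 compounds, and neighbours in the order overlapped in their intervals throughout. These differences lay near the limit of 10 PSI: NVP-AEW-541 (-10.91 PSI) and Crenolanib (-10.55) were called without DMSO library A, and Vorinostat without DMSO library B (10.27 PSI) or without its own library A (11.76).

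Of 638 pairs of a Dcaf15 event and a compound, 1 (0.157%) was called, where 1.19% of all pairs of any event and compound were. The call was a 190-nt alternative 5′ splice site with SCH-772984, where 0.385% of events were called increased. That site was used at 12.46 PSI on 56 reads, against 2.73, 0.0 and 3.31 PSI in DMSO. The widest spread of any Dcaf15 event was in a 114-nt intron (chr8:86621408-86621521), retained at 35.8, 41.94 and 34.62 PSI in DMSO. Of those 3 libraries, 1 passed the filters. The intron lies directly after the 114-nt extension described above, so its retention is set against splicing from the longer exon only. Both events are counted in part on the same junction and are not independent measures. Retention in compounds ranged from 17.24 PSI with Vorinostat to 77.78 with Crenolanib on 17 and 40 reads. Too few DMSO libraries passed for the event to enter any comparison. With DMSO library A or C left out it did enter, and the Dcaf15 calls rose from 1 to 12 without A and to 10 without C, 9 of them in this intron each time. With library A of the HDAC inhibitors left out, and likewise with B, there were 2 Dcaf15 calls. An 87-nt intron (chr8:86622570-86622656) was retained at 6.22, 6.31 and 5.84 PSI in DMSO (SD 0.25, n = 3). Over the compounds it ran from 0.69 (BTB13120) to 13.27 PSI (T5758020). BTB12021, RDR00572, S02045 and RH01954 gave 9.38, 9.03, 10.6 and 9.6 PSI, each in 1 library. The median was 179 reads per library, and this intron was called in no compound.

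Dda1 was the member with coding exons that were skipped. It has 9 events, and 6 passed in DMSO and at least 20 compounds. Its 52-nt exon (chr8:73996094-73996145, plus strand) and 62-nt exon (chr8:73997674-73997735) follow each other across a 1528-nt intron. Both are wholly coding in the protein-coding transcripts that hold them, neither has a length divisible into codons, and together they add 114 bases, which is. The exons are shown whole because skipping either one shifts the reading frame.
Dda1 52-nt exon: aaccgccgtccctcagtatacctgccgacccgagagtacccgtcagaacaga
Dda1 62-nt exon: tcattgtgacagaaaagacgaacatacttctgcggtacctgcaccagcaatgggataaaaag

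The 52-nt exon was at 95.11, 95.27 and 96.43 PSI in the DMSO libraries, a mean of 95.6 ± 0.72 (SD, n = 3). With T5985871 it was at 71.36 PSI (95% interval 69.036 to 73.576, 1520 reads), below every other library. AW00693 (85.06 PSI, 1090 reads) and MK-1775 (85.76 PSI, 926 reads) came next, below all remaining conditions, which ran from 90.09 PSI with the ChemBridge compound to 97.52 with BRD6688. T5985871 was called at -24.24 PSI and AW00693 at -10.54 PSI, where 1.27% and 0.715% of events were called decreased. MK-1775 was at -9.84 PSI and not called, and leaving out 1 DMSO library at a time moved it between -10.09 and -9.43, so that it was called without A and without B.

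The 62-nt exon was low in the same compounds. The DMSO libraries gave 97.04, 96.39 and 96.1 PSI, a mean of 96.5 ± 0.48 (SD, n = 3). T5985871 was again lowest, at 79.23 PSI (95% interval 77.311 to 81.027, 1829 reads), a called difference of -17.28 PSI. MK-1775 (87.95 PSI), AW00693 (90.7) and the ChemBridge compound (91.49) followed, and the highest was SEW06315 at 98.63. The benzenesulfonamides were at 98.36 (BTB12021), 95.11 (RDR00572), 98.48 (S02045) and 97.86 PSI (RH01954). In all, 3 of 165 pairs of a Dda1 event and a compound were called (1.82%), where 1.19% of all pairs of any event and compound were. All 3 were decreases, namely both exons with T5985871 and the 52-nt exon with AW00693, each compound in 1 library.

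**Figure D5:**
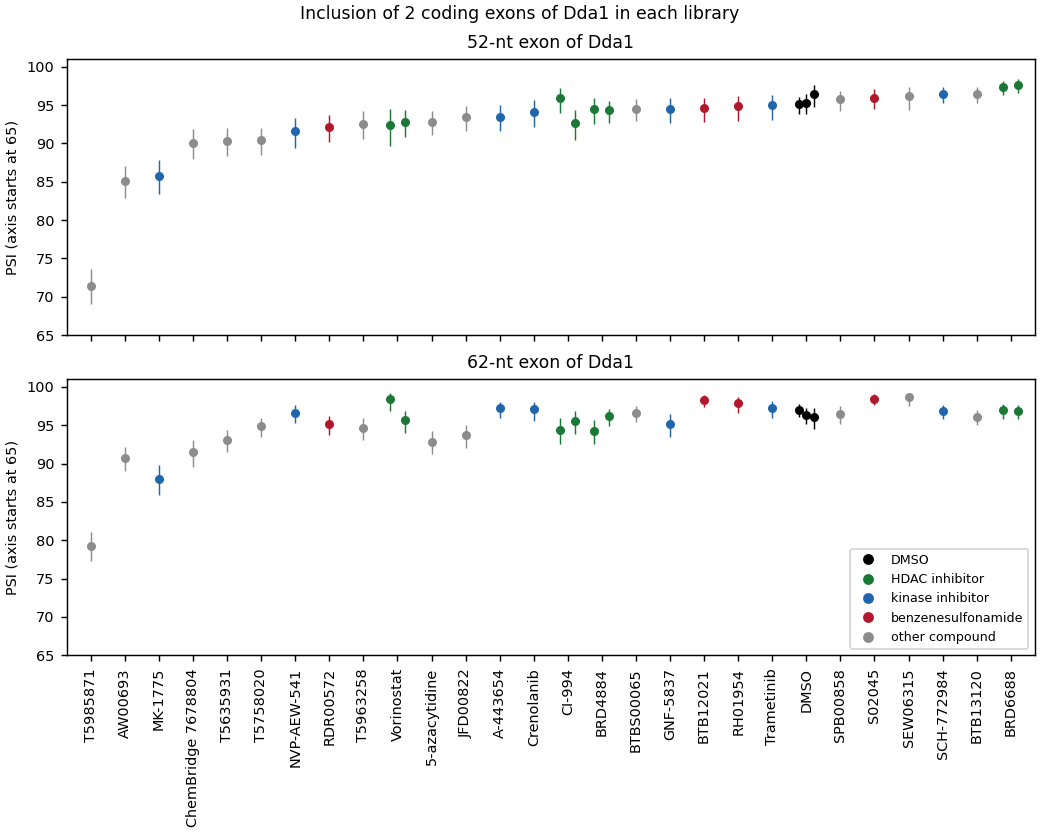
Percent spliced in (y axes, starting at 65) of the 52-nt exon (upper panel) and the 62-nt exon (lower panel) of Dda1 in each library, with conditions on the x axis ordered by the 52-nt exon and bars for the 95% Wilson interval. T5985871 lies lowest in both panels, at 71.36 and 79.23, with AW00693 and MK-1775 next.

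The level of Dda1 (ENSMUSG00000074247.10) was at 56.67 RPKM in DMSO and below that in 20 compounds, a direction that the median gene shared with most compounds. The exception in size was T5985871, at 114.29 RPKM or 2.01 times DMSO, the one compound past 2-fold, where 6.05% of genes were past 2-fold higher. With 1 RPKM added in place of 0.5 it no longer passed. The skipping of both exons and the highest Dda1 level thus fell in 1 and the same library. AW00693, which also had a lower 52-nt exon, was at 60.72 RPKM and MK-1775 at 44.91. The lowest values were 32.12 RPKM with CI-994 and 37.0 with Vorinostat, and the benzenesulfonamides ran from 48.55 to 58.72.

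Across the 3 genes, 74 of 77 events passed the filters in at least 1 library, 63 in DMSO and at least 20 compounds, and 44 in all 34 libraries. Of 1699 pairs of event and compound, 9 were called, 3 increased and 6 decreased (0.530%, beside the 1.19% given above for all events). Leaving out 1 library at a time gave 10 to 21 calls, with 21 without DMSO library A (1.20% of pairs) and 18 without C (1.03%), most of the added ones in the 114-nt intron of Dcaf15. The share of the 3 genes is therefore not set apart from that of all events. When each DMSO library was set against the other 2, 0 of 192 pairs were called, where 0.787% (A), 0.784% (B) and 0.77% (C) of all events were. With all libraries in use, 0 events of the 3 genes were called with any HDAC inhibitor or benzenesulfonamide at 10 PSI, and the losses of the stop-carrying exons of Rbm39 do not enter that count for the reason given above.

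The partners of these genes in the ligase and in splicing were measured in lists fixed by name. Of the CRL4 core, Cul4a and Cul4b (the cullins), Ddb1 (the adaptor), Rbx1 (the RING subunit) and Det1 (a receptor that binds DDA1) made 135 pairs of gene and compound, of which 0 were past 2-fold higher and 5 lower (3.70%). Cul4a was at 83.2 RPKM in DMSO and at 26.53 with CI-994, and was past 2-fold lower with Vorinostat, CI-994 and T5985871. Rbx1 was at 153.81 RPKM in DMSO and lowest with CI-994 at 58.22. Ddb1 (158.63 to 238.32 RPKM, with 216.14 in DMSO), Cul4b (33.12 to 78.41, with 46.95) and Det1 (6.76 to 14.31, with 12.7) were past 2-fold in no compound.

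Genes of the NEDD8 pathway and the COP9 signalosome, which attach and remove the ubiquitin-like activator of cullins, gave 16 lower and 0 higher of 405 pairs (3.95%). With CI-994, 10 of the 15 were past 2-fold lower, where 26.1% of all genes were, with a median log2 ratio of -1.28 beside -0.44 for all genes. Centred on the median gene of each compound, 5 of the list's 16 calls were left over all compounds. Among 19 other substrate receptors 3 pairs were higher and 7 lower of 486 (2.06%), and Dtl, the receptor for replication licensing factors, was at 67.34 RPKM in DMSO and 9.58 with CI-994. Cops6, a signalosome subunit, was at 69.1 RPKM in DMSO and past 2-fold lower with Vorinostat, CI-994 and AW00693. Over all genes, 2.67% of pairs of gene and compound were past 2-fold higher and 3.86% lower.

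Of 9 genes for 3′ splice site recognition or with a U2AF homology motif, 1 pair was higher and 9 lower of 243 (4.12%). U2af1 and U2af2, the U2AF subunits, were at 222.11 and 144.12 RPKM in DMSO and lowest with CI-994, at 69.32 and 42.22. U2af2 was past 2-fold lower with all 4 HDAC inhibitors. So were 22.5% of all genes with Vorinostat, 26.1% with CI-994, 674 of 9979 with BRD6688 and 442 of 10009 with BRD4884. With BRD6688 and BRD4884 the log2 ratios of U2af2 were -1.18 and -1.06, beside -0.19 and -0.27 for the median gene. Centred on that median, neither was past 2-fold. Puf60, a U2AF-like factor, was at 86.94 RPKM in DMSO and 181.1 with T5985871. Of the coactivator partners, Jun (15.87 RPKM in DMSO) was just past 2-fold higher with Trametinib (2.01 times) and GNF-5837 (2.05 times), in 1 library each. There, 148 of 9691 and 352 of 9873 genes were past 2-fold higher. Esr1 and Esr2 were at 0.64 and 0.0 RPKM in DMSO. With the 4 benzenesulfonamides 0 genes of any of these lists were past 2-fold. Few genes of any kind were: 86 higher and 83 lower of 9605 with BTB12021, and 117 and 60 of 9590 with RDR00572. With S02045 they numbered 58 and 57 of 9592, and with RH01954 43 and 34 of 9537. The absence of calls therefore does not set these lists apart. The list medians lay between -0.23 and 0.07 on the log2 scale, beside -0.16 to -0.04 for all genes.

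The profiles of the 3 genes over the 28 conditions were only moderately alike, with Pearson's r of 0.67 for Dda1 and Rbm39, 0.53 for Dcaf15 and Dda1, and 0.49 for Dcaf15 and Rbm39 on log2 RPKM. Among 9337 genes, those most like Rbm39 were Rbm22 (r = 0.89), a factor of the catalytic spliceosome, then Rprd2, Herpud1, Gtf3c4 and Polr2m (0.88 each). Those most opposite to it were BC004004 (-0.90, listed under a clone name), Paqr7 (-0.89) and Nudt7 (-0.88). Those most like Dcaf15 were Spc24 (0.94), a kinetochore gene, Rfc5 (0.94), a subunit of the replication clamp loader, and Mybl2 (0.93), a cell cycle transcription factor. Those most like Dda1 were 2510039O18Rik (0.90, listed under a clone name), Gm13394 (0.90), a processed pseudogene whose reads may belong to its parent gene, and Daxx (0.89), a histone chaperone. Conditions share libraries, depth and the strong shifts with HDAC inhibitors, so these likenesses are descriptions of this set of compounds.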

How the data were processed

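Percent spliced in (PSI) values, as percent per event and library, were deposited by the authors, who made them with vast-tools on mm9 from junction reads, with inclusion and exclusion reads per event. RPKM values were deposited by the authors as 1 value per condition, from Salmon estimates summed to genes (version 0.10.2 in the submitters' processing notes), with replicates merged. Conditions came from the sample labels, compound names, chemical classes and doses from the study's supplementary lists, and 0 value columns were left without a condition. The deposited fold changes, p-values and splicing calls were not used.

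Exons had to pass the coverage and balance filters of the study. Introns needed 15 reads or more, and a p above 0.05 for the balance of reads at their ends. The mean over passing libraries gave a condition's PSI. Events were called where it differed by 10 PSI or more and where over 0.95 of 2000 draws from beta distributions of the reads per library lay on the same side of 0. Log2 odds used 0.5 added reads. Wilson intervals are at 95% and cover counting error only. Positions are those of the deposited table. Exons were matched to GENCODE vM21 transcripts by exon and intron length, and 52566 of 52661 genes were matched by identifier. Python 3.11.15, numpy 2.4.6, pandas 2.3.3 and matplotlib 3.10.9 were used.

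The genes, gene lists and events were chosen with earlier results of these data known. Events were named by rule when called in at least 3 compounds, or with the widest PSI range of a gene among events that passed in DMSO and at least 20 compounds, which gave the 18-nt site of Rbm39, the 114-nt site of Dcaf15 and the 52-nt exon of Dda1, and the other events were named after their values were seen. Genes named from the lists are the CRL4 core in full and those past 2-fold in at least 3 compounds, and Puf60 and the coactivator partners were added after their values were seen. Genes alike are the 5 with the highest and the 3 with the lowest correlation for Rbm39 and the 3 highest for Dcaf15 and Dda1, on log2 of RPKM plus 0.5. Nothing shows that libraries of 1 condition were separate cultures. An exact permutation test of 2 against 3 libraries could not go below p = 0.1, and none was run. Tests planned on expression per library were replaced by descriptions. Alternatives were other thresholds, filters, pseudocounts, centring and leaving out each library. One listed gene is not analysed here.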

Additional observations from a re-analysis of the deposited data

How the results depend on the processing

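Of 216 alternative values, 0 changed direction, though counts of calls have no direction to change. Of those for counts of calls and for named differences, 83 stayed within the spread or within 1.5 times the reported count and 28 moved. Leaving out libraries at the 18-nt site of Rbm39, which is not part of that count, did change the sign of small differences. There BRD4884, at 1.455 PSI from DMSO, was at 9.1 without its library A and -6.19 without B. BTB12021, at -1.73 PSI, was at 0.86 without DMSO library B. The 9 calls of splicing events became 2 at 15 PSI (0 for Rbm39, 0 for Dcaf15), 20 without the balance filter and 26 without any filter, and 3 of the 5 calls of Rbm39 were left at a posterior above 0.99. Calls of Dcaf15, 1 as reported, became 12 without the balance filter and 18 without any, of which 11 were the 114-nt intron in either case. Leaving out 1 library at a time gave 10 to 21 calls in all and 1 to 12 for Dcaf15. Without DMSO library A there were 12 Dcaf15 calls and without C there were 10, of which 9 were that intron in each case, because 1 of 2 DMSO libraries then passed. The gain of the 73-nt exon with CI-994, 3.92 PSI, ran from 3.25 to 4.60 PSI when a library was left out.

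The libraries with the same letter did not deviate together (correlations of -0.0415 to 0.0384 over exons), so the letters were not taken to pair them. With a replicate block the HDAC inhibitors had 0 member calls, as without it, and CI-994 stood at 3.94 PSI.

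Past 2-fold, Dda1 had 0 compounds with a pseudocount of 1 RPKM, against 1, and Rbm39 had 1 after centring, against 0. Centring left 3 of 5 calls in the CRL4 core, 5 of 16 among the NEDD8 and COP9 genes and 5 of 10 among the splice site genes. The coactivator partners, with 2 calls, had 8 above 1 RPKM, 9 with no limit and 1 with a pseudocount of 1. Of the genes most like each member, 2 of 5 were kept for Rbm39, 1 of 3 for Dcaf15 and 1 of 3 for Dda1 without the HDAC inhibitors, and 3 of 5 for Rbm39 after centring. Compounds with 1 library and merged RPKM have no replicate check, and inclusion under about 1 PSI rests on few reads. The scale of log2 odds and its limits were chosen after the data were seen.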
